A study of Homo sapiens with 15 samples.

Results

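The genes of non-homologous end joining were examined in LNCaP cells treated with R1881 or with R1881 and enzalutamide. The group was defined by gene symbol and holds 9 genes: PRKDC, XRCC5, XRCC6, XRCC4, LIG4, NHEJ1, DCLRE1C, POLL and POLM. Of these, 8 had a row among the 17272 genes of the expression table, and NHEJ1 was not analysed here. LNCaP cells are an established line from a human prostate cancer that responds to androgen. R1881 is an androgen made by synthesis, and enzalutamide blocks the androgen receptor. By the labels, R1881 (1 nM) was combined with DMSO in 10 libraries and with enzalutamide, marked as high, in 5 libraries. The methods of the study give 2 µM for enzalutamide, and they give the group sizes the other way round. All cells had been kept for 2 days in medium with charcoal-stripped serum and were collected after 22 h of treatment, so that every library came from androgen-stimulated cells and none from unstimulated or irradiated cells. Polyadenylated RNA was sequenced, and the values are CPM, the reads of a gene after scaling of each library by the authors. Between 15830745 and 25416052 reads per library had been counted on genes.

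Non-homologous end joining repairs DNA breaks that cut both strands without the need for an intact copy of the sequence, and it works throughout the cell cycle. A ring of Ku70 (XRCC6) and Ku80 (XRCC5) slides onto the broken end and recruits the kinase DNA-PKcs (PRKDC), together forming DNA-PK. The nuclease Artemis (DCLRE1C) trims ends, the family X polymerases lambda (POLL) and mu (POLM) fill gaps, and ligase IV (LIG4) with its partner XRCC4 seals the break, helped by XLF (NHEJ1). In prostate cancer, androgen receptor signalling has been linked to the expression of DNA repair genes, and DNA-PKcs has been described as a partner of the receptor.

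The treatment was visible in known androgen-induced genes, with log2 fold changes of -4.87 for KLK2, -4.99 for FKBP5 and -3.56 for TMPRSS2. All 8 luminal prostate markers examined were present in both treatments, the lowest being KLK2 at 15.2 CPM with R1881 + enzalutamide, and 5 were called lower and 3 higher with enzalutamide. Both leukocyte markers, 2 of 3 basal markers, 2 of 3 fibroblast markers and 1 of 2 endothelial markers had no row. Of the others, the basal marker was called lower and the fibroblast and endothelial markers higher. The fibroblast marker was at 4.38 to 8.43 CPM with R1881 + DMSO and 7.45 to 12.3 CPM with R1881 + enzalutamide, the basal marker at 0.706 to 1.44 and 0 to 0.279 CPM, and the endothelial marker at 2.08 to 2.84 and 2.84 to 3.35 CPM. Their part in the results was not tested. In the labels the R1881 + DMSO libraries are numbered 51 to 55 and 71 to 75, and those with R1881 + enzalutamide 81 to 85, without a stated meaning. Each of these series belongs to a single treatment, so treatment and series cannot be told apart. Within a treatment, deviations of genes from the group mean followed the GC content of the transcript in several libraries. Over 11283 genes, which are no independent replicates, Spearman's rho was 0.80 for R1881 + enzalutamide replicate 2. It was 0.65 and 0.79 for R1881 + DMSO replicates 5 and 6. In the other direction it was -0.67, -0.66 and -0.72 for R1881 + DMSO replicates 7, 9 and 10. For R1881 + enzalutamide replicates 1 and 4 it was -0.54 and -0.61, and in the rest it lay between -0.29 and 0.28. R1881 + enzalutamide replicate 5 was the most deeply sequenced library.

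The starts of end joining genes that fell and of a gene that rose are shown as context for the values. The windows hold 250 bases before and 50 bases after the start site (RefSeq, GRCh38.p14), read along the strand of the gene. XRCC6 (chr22:41621045-41621344, plus strand) and LIG4 (chr13:108218300-108218599, minus strand) were lower with enzalutamide, and POLL (chr10:101588221-101588520, minus strand) was higher. Capitals mark matches, on either strand, to the motifs searched: the GC box GGGCGG, the CCAAT box, E2F sites (TTTGGCGC and TTTCGCGC), an ETS site (CCGGAAGT), the core of the NRF1 site (GCATGCG), the hexamer AGAACA bound by steroid receptors, and the cyclic AMP element (TGACGTCA).
XRCC6: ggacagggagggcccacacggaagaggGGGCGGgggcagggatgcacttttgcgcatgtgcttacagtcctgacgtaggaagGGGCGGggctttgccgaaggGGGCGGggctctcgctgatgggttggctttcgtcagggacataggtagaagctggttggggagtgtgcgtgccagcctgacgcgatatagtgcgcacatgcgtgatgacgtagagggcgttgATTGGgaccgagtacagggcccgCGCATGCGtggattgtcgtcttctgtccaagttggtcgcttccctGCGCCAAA
LIG4: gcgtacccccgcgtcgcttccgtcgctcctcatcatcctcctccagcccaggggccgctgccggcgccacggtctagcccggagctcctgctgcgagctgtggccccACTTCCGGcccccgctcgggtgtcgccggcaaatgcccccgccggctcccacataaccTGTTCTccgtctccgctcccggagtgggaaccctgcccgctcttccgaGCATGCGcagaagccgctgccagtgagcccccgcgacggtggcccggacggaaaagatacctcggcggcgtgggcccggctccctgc
POLL: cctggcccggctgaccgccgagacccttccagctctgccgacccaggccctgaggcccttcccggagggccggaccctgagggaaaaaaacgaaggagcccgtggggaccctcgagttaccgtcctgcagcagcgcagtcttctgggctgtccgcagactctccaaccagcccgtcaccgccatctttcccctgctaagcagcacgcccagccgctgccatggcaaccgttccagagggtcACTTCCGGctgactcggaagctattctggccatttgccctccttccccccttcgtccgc

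The XRCC6 window held 3 GC boxes, a CCAAT box, the NRF1 core on both strands in overlapping matches, and the E2F site TTTGGCGC at position 43 after the start site. That E2F site was found in 0.652% of the 34796 promoter windows of the same length, and the NRF1 core in 3.85%. The GC box was found in 44.9% of windows and the CCAAT box in 34.6%. Both were also found in the windows, not shown, of XRCC4, DCLRE1C and POLM, which were not called lower or higher. In the LIG4 window an ETS site, the NRF1 core and the hexamer AGAACA at position -85 were found, the last present in 14.8% of all windows. POLL had a single match, an ETS site at position -9, a motif found in 4.13% of windows. These matches describe letters in the window and not binding. LIG4 had 5 promoter windows and POLL 2, and the one nearest the 5' end of the gene in the annotation is shown. Windows for PRKDC and XRCC5 are not shown.

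With enzalutamide the Ku genes XRCC5 and XRCC6, the kinase gene PRKDC and the ligase gene LIG4 were lower, and the polymerase gene POLL was higher. XRCC5 changed most, to 0.671 of its level with R1881 + DMSO. No call was made for XRCC4, POLM or DCLRE1C. Differences were tested with limma over the 17046 genes with a mean of at least 0.5 CPM, on log2(CPM + 0.5), which understates the change of genes with few reads. All 8 genes passed this filter. Thus 5 of 8 genes passed an adjusted p of 0.05 in limma, 4 of them lower and 1 higher, beside 62.5% of all genes tested (32.7% lower and 29.8% higher). The share of end joining genes called was therefore that of the transcriptome as a whole. The median log2 fold change of the 8 genes was -0.13, and that of all genes tested was -0.01. For 4 of the 8 genes the ranges of the treatments did not overlap, 3 of them lower and 1 higher, as for 37.2% of all genes tested (20.1% lower and 17.1% higher). In this fit none of the 8 genes reached a change of 1.5-fold, which 18.6% of all genes tested did with an adjusted p under 0.05 from limma. XRCC5 lay just short of it, and passed it against libraries 51 to 55 alone (log2 fold change -0.65). In these bulk samples, fewer cells with a transcript and less RNA per cell cannot be told apart.

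**Figure D1:**
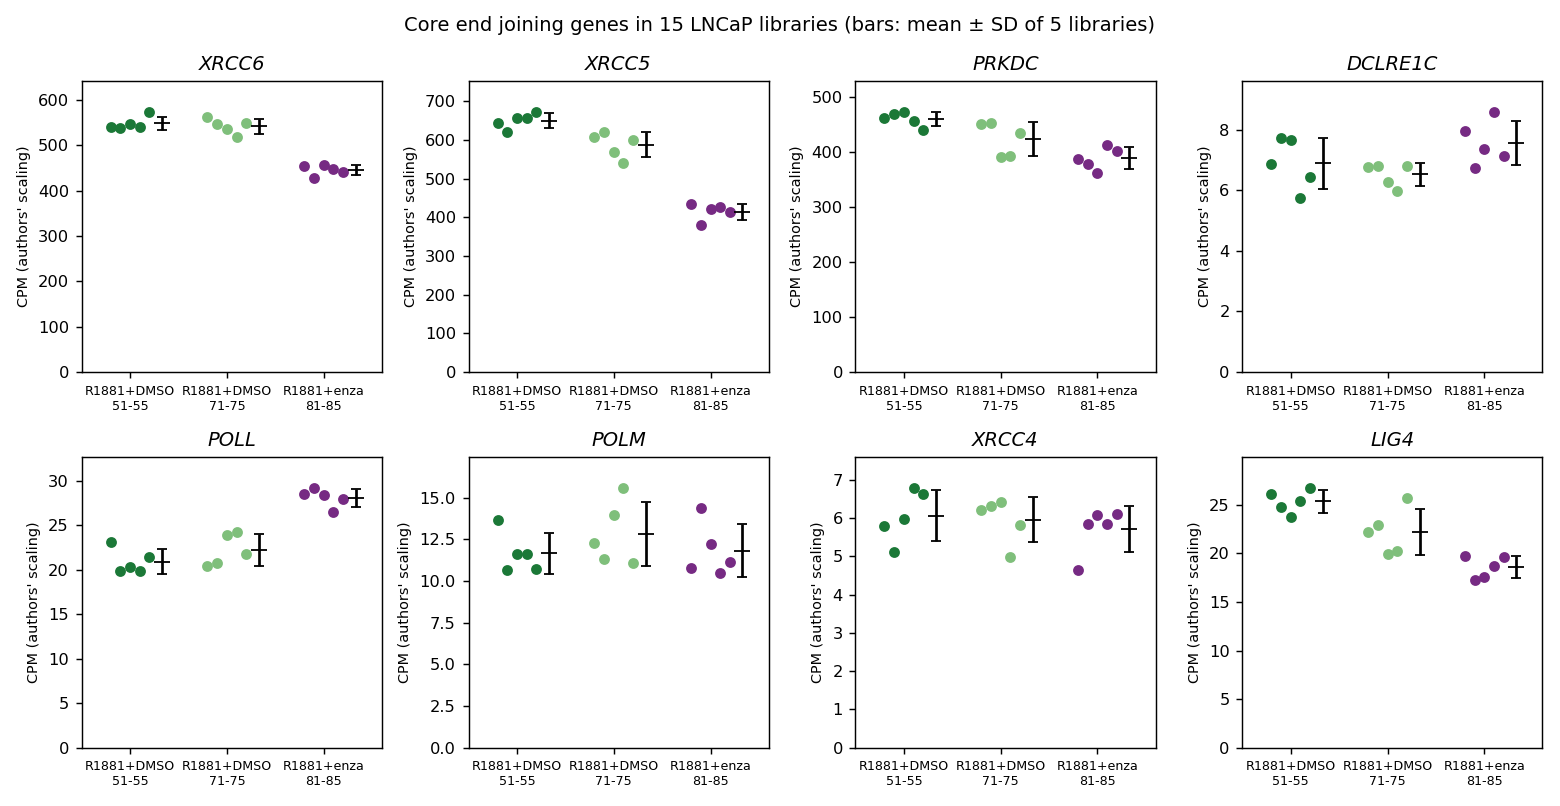
Expression of the 8 end joining genes in each of the 15 libraries (y axes, CPM with the authors' scaling, from 0), with the R1881 + DMSO libraries split by their label numbers. Points are libraries and bars the mean ± SD of 5 libraries; for XRCC6, XRCC5, LIG4 and POLL no R1881 + enzalutamide library lies within the range of the R1881 + DMSO libraries.

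The Ku genes had the highest levels of the pathway, and both were lower in every R1881 + enzalutamide library. XRCC5, which encodes Ku80, lies on chromosome 2 (plus strand, 216107464 to 216206303, GENCODE v44 on GRCh38, canonical transcript of 21 exons). Its level with R1881 + DMSO ranged from 540.9 to 671.8 CPM (median 620.7). The R1881 + enzalutamide libraries, replicates 1 to 5, had 434, 380, 421, 425 and 413 CPM. All 5 lay below the lowest R1881 + DMSO library, by at least 107 CPM. This gave XRCC5 a log2 fold change of -0.57 (SE 0.046, adjusted p = 7.14e-10 from limma), and the median level decreased by 32.1%.

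XRCC6, which encodes Ku70 and lies on chromosome 22 (plus strand, 41621163 to 41664048, 13 exons), ranged from 517 to 573 CPM with R1881 + DMSO (median 543.6). With R1881 + enzalutamide its levels were 454, 428, 457, 447 and 441 CPM. Again the ranges of the treatments were apart, with all enzalutamide values the lower ones. XRCC6 was the least variable of the 8 genes, with a coefficient of variation of 2.75% with R1881 + DMSO and 2.6% with R1881 + enzalutamide. Its log2 fold change was -0.29 (SE 0.028, adjusted p = 1.13e-08 from limma). The annotation names 5 pseudogenes of XRCC6 and 1 of DCLRE1C, and the handling of reads that match several places is not stated.

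PRKDC encodes DNA-PKcs, the kinase that Ku brings to the break. The gene lies on chromosome 8 (minus strand, 47773111 to 47960178, 86 exons). Its range was 390.9 to 472 CPM with R1881 + DMSO (median 451.7). The R1881 + enzalutamide libraries had 388, 379, 361, 412 and 403 CPM, so that 2 of 5 lay within the R1881 + DMSO range. The lowest R1881 + DMSO libraries were replicates 5 and 6, at 391 and 392 CPM. These had the strongest positive trend on GC content among the R1881 + DMSO libraries. Replicates 7, 9 and 10 had a trend of similar size in the other direction. PRKDC thus had a log2 fold change of -0.18 (SE 0.046, adjusted p = 0.00153 from limma). This was the smallest change among the genes called, and it depended on the scaling. With library totals set to 1000000 it was -0.09 (adjusted p = 0.0745 from limma), and PRKDC was then not called.

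Among the genes that process ends, POLL rose. POLL encodes DNA polymerase lambda, a gap-filling enzyme, and lies on chromosome 10 (minus strand, 101578882 to 101588270, 9 exons). Its level was between 19.8 and 24.3 CPM with R1881 + DMSO (median 21.1). With R1881 + enzalutamide it was 28.5, 29.2, 28.4, 26.5 and 27.9 CPM. All 5 libraries exceeded the highest R1881 + DMSO library. POLL had a log2 fold change of 0.38 (SE 0.054, adjusted p = 4.00e-06 from limma). In the annotation, exons of POLL overlap those of DPCD on the opposite strand. DPCD went the other way, with 23.8 ± 0.856 CPM in R1881 + DMSO (SD, n = 10), 20.7 ± 0.794 CPM in R1881 + enzalutamide (SD, n = 5) and a log2 fold change of -0.20 (adjusted p = 0.000403 from limma). The libraries kept the strand, but it is not stated whether counting did.

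POLM, the gene of the related polymerase mu, lies on chromosome 7 (minus strand, 44072062 to 44082530, 11 exons). It ranged from 10.6 to 15.6 CPM with R1881 + DMSO (median 11.6) and had 10.8, 14.4, 12.2, 10.5 and 11.1 CPM with R1881 + enzalutamide. The groups overlapped almost fully, with 4 of 5 R1881 + enzalutamide libraries inside the R1881 + DMSO range. The libraries with the highest POLM in each treatment, R1881 + DMSO replicate 6 and R1881 + enzalutamide replicate 2, were those with the strongest positive trend on GC content, and the POLM transcript has a GC content of 60.3%. The log2 fold change was -0.05 with a 95% interval from -0.24 to 0.14 (adjusted p = 0.650 from limma). It was 0.04 with library totals set to 1000000, so no direction is given for POLM.

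DCLRE1C encodes Artemis, the nuclease that DNA-PKcs activates, and lies on chromosome 10 (minus strand, 14897359 to 14954432, 14 exons). It had between 5.73 and 7.72 CPM with R1881 + DMSO (median 6.79) and 7.96, 6.74, 7.37, 8.58 and 7.14 CPM with R1881 + enzalutamide. Both highest R1881 + enzalutamide libraries lay above all R1881 + DMSO libraries, and the other 3 lay within their range. Its log2 fold change of 0.16 had a 95% interval from 0.0023 to 0.32 (adjusted p = 0.0721 from limma). The call of DCLRE1C turned on the processing. It was called higher by edgeR (0.22, adjusted p = 0.0213 from the quasi-likelihood test), with TMM factors (adjusted p = 0.0494 from limma), with library totals set to 1000000 (adjusted p = 0.00646 from limma), and with the trend on GC content removed (adjusted p = 0.0408 from limma). It was also called without R1881 + DMSO replicate 4 (adjusted p = 0.0425), without R1881 + DMSO replicate 7 (adjusted p = 0.0428) and without R1881 + enzalutamide replicate 2 (adjusted p = 0.0402, all from limma). It was not called by DESeq2 (adjusted p = 0.0613), with median-ratio factors (adjusted p = 0.0566 from limma), with the replicate block (0.12, adjusted p = 0.230 from limma), or against libraries 51 to 55 (adjusted p = 0.245) and 71 to 75 alone (adjusted p = 0.0533, both from limma). Leaving out any other single library also gave no call, with the highest adjusted p, 0.222, without R1881 + enzalutamide replicate 4. Exons of DCLRE1C overlap those of SUV39H2 on the opposite strand, a gene that fell (log2 fold change -0.29, adjusted p = 7.91e-05 from limma).

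In the ligation complex a call was made for LIG4 and not for XRCC4. LIG4, the gene of the ligase, lies on chromosome 13 (minus strand, 108207439 to 108218368, 3 exons). It ranged from 19.9 to 26.7 CPM with R1881 + DMSO (median 24.3) and had 19.7, 17.3, 17.6, 18.7 and 19.6 CPM with R1881 + enzalutamide. The groups did not overlap, but the gap between them was only 0.249 CPM, and the lowest R1881 + DMSO libraries were again replicates 5 and 6. For LIG4 the log2 fold change was -0.34 (SE 0.068, adjusted p = 0.000193 from limma). Without R1881 + DMSO replicates 5 and 6, a comparison chosen after seeing the data, it was -0.40.

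XRCC4, the scaffold that holds and stabilises the ligase, lies on chromosome 5 (plus strand, 83077498 to 83353787, 8 exons). It had between 5.00 and 6.79 CPM with R1881 + DMSO (median 6.11) and 4.65, 5.86, 6.10, 5.84 and 6.12 CPM with R1881 + enzalutamide. Only replicate 1 of R1881 + enzalutamide lay outside the R1881 + DMSO range. Between 92 and 156 reads per library stood behind these values, the fewest of the 8 genes. The log2 fold change was -0.07 with a 95% interval from -0.24 to 0.10 (adjusted p = 0.484 from limma), and it was 0.02 with library totals set to 1000000. The LIG4 estimate of -0.34 lay outside this interval, but the 95% interval of LIG4, from -0.48 to -0.20, overlapped it.

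**Figure D2:**
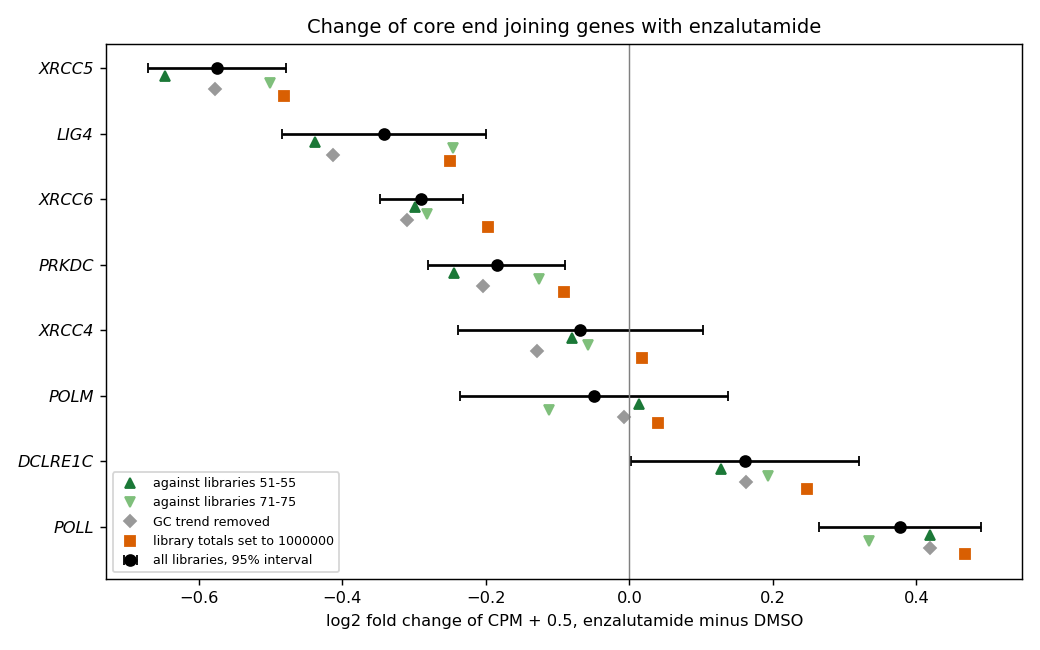
Log2 fold change of CPM + 0.5 (x axis, enzalutamide minus DMSO) for each end joining gene (y axis), with black circles and bars for all libraries with the 95% interval of limma and coloured marks for the comparison with each R1881 + DMSO series alone, with the GC trend removed and with library totals set to 1000000. XRCC5, LIG4, XRCC6 and PRKDC are below 0 and DCLRE1C and POLL above 0 under every setting shown, while XRCC4 and POLM lie on both sides.

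The 5 genes called in all libraries were also called against each R1881 + DMSO series alone. Against libraries 51 to 55 the log2 fold changes were -0.65 for XRCC5, -0.44 for LIG4, -0.30 for XRCC6, -0.24 for PRKDC and 0.42 for POLL. Against libraries 71 to 75 they were -0.50, -0.25, -0.28, -0.13 and 0.33 in the same order. These comparisons share the R1881 + enzalutamide libraries. With the trend on GC content removed, the values were -0.58 for XRCC5, -0.41 for LIG4, -0.31 for XRCC6, -0.20 for PRKDC and 0.42 for POLL. Without R1881 + enzalutamide replicates 2 and 5 they were -0.53, -0.33, -0.27, -0.19 and 0.36, and DCLRE1C was also called (0.23, adjusted p = 0.0346 from limma). Without R1881 + DMSO replicates 5 and 6 the same 5 genes were called, and XRCC5 was at -0.61. R1881 + DMSO replicates 7, 9 and 10, with the opposite trend on GC content, were not left out together.

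The size of differences within one treatment was measured by comparing the R1881 + DMSO libraries 51 to 55 with 71 to 75. None of the 8 genes passed an adjusted p of 0.05 in limma, beside 3.29% of all genes tested (2.43% higher and 0.857% lower in libraries 51 to 55). At an unadjusted p under 0.05 there were 3 genes, XRCC5, LIG4 and PRKDC, all higher in libraries 51 to 55, beside 24% of all genes tested (13.9% higher in libraries 51 to 55). Among all genes tested, limma called 409 higher and 144 lower in libraries 51 to 55. Without R1881 + DMSO replicate 9 these were 35 and 21, and without replicate 3 they were 651 and 318. R1881 + DMSO replicates 7, 9 and 10, with a negative trend on GC content, belong to libraries 51 to 55. Replicates 5 and 6, with a positive trend, belong to 71 to 75, so series and trend partly coincide. With the trend removed, none of the 8 genes passed. By edgeR, XRCC5 was called. XRCC5 was at 649.6 ± 19.5 CPM (SD, n = 5) in libraries 51 to 55 and at 587 ± 32.6 CPM (SD, n = 5) in libraries 71 to 75, a log2 difference of 0.15 (adjusted p = 0.0546 from limma). For LIG4 this difference was 0.19 and for PRKDC 0.12, while XRCC6 differed by 0.02. Between treatments, PRKDC differed by -0.18 in all libraries, by -0.13 against libraries 71 to 75 alone and by -0.09 with library totals set to 1000000, sizes close to its difference between the series. LIG4 differed by -0.34 in all libraries. Against libraries 71 to 75 alone, and with library totals set to 1000000, LIG4 differed by -0.25, not far from its series difference of 0.19 in size.

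Ratios within a library do not depend on its scaling and were used to compare members of one complex or family. For the Ku genes the ratio XRCC6 over XRCC5 ranged from 0.824 to 0.956 with R1881 + DMSO (median 0.874) and was 1.05, 1.13, 1.09, 1.05 and 1.07 with R1881 + enzalutamide. All R1881 + enzalutamide libraries had more CPM on XRCC6 than on XRCC5, and all R1881 + DMSO libraries the reverse. CPM are not corrected for gene length, so this order is not that of transcript levels. Per kilobase of exon union, XRCC6 exceeded XRCC5 in 15 of 15 libraries. The ratio was 1.22 times that with R1881 + DMSO (log2 difference 0.28, two-sided exact permutation test, p = 0.000333, the smallest this design allows, and 0.000444 after Benjamini-Hochberg adjustment over 4 ratios). The same ratio also differed between the R1881 + DMSO series, by -0.13 on the log2 scale (two-sided exact permutation test, p = 0.00794, adjusted over the 4 ratios 0.0317). Against libraries 51 to 55 alone the difference between treatments was 0.35 and against libraries 71 to 75 alone 0.22. Among the R1881 + DMSO libraries the ratio was highest in replicates 5 and 6, with a positive trend on GC content. It was lowest in replicates 7 and 9, with a negative trend. With the trend on GC content removed, the difference between treatments was 0.27.

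PRKDC over XRCC5 rose from a median of 0.721 (range 0.655 to 0.755) to 0.968 (range 0.858 to 0.997). The log2 difference was 0.39 (two-sided exact permutation test, p = 0.000333, adjusted 0.000444), and the R1881 + DMSO series differed by only -0.03. Among the polymerases, POLM over POLL decreased from a median of 0.578 (range 0.50 to 0.642) to 0.399 (range 0.378 to 0.492), with no overlap (log2 difference -0.44, two-sided exact permutation test, p = 0.000333, adjusted 0.000444). LIG4 over XRCC4 decreased from a median of 4.0 (range 3.11 to 4.84) to 3.21 (range 2.89 to 4.23), and here the groups overlapped. Its log2 difference was -0.28 (two-sided exact permutation test, p = 0.0253, the same after adjustment over 4 ratios). This ratio missed the threshold without R1881 + enzalutamide replicate 2 (log2 difference -0.24, adjusted p = 0.0659), without R1881 + enzalutamide replicate 3 (-0.23, adjusted p = 0.0709, exact permutation tests) and against libraries 71 to 75 alone (-0.19, adjusted p = 0.159, exact permutation test).

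**Figure D3:**
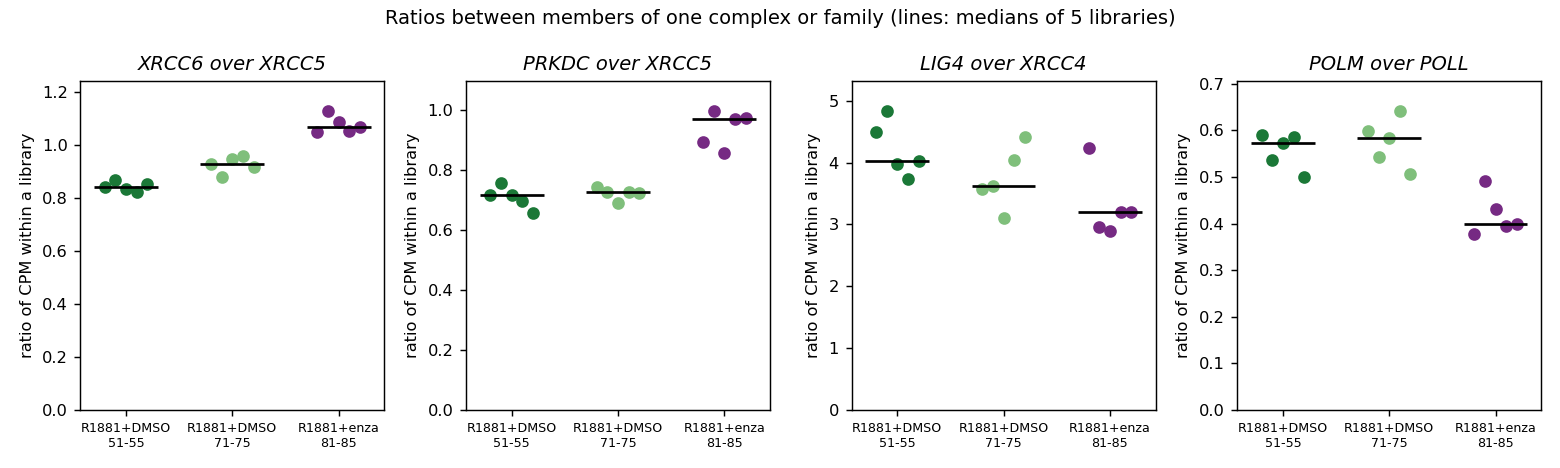
Ratio of the CPM of gene pairs within each library (y axes, from 0), by R1881 + DMSO series and R1881 + enzalutamide, with points for libraries and lines for medians of 5. For XRCC6 over XRCC5, PRKDC over XRCC5 and POLM over POLL the R1881 + enzalutamide libraries lie outside the range of the R1881 + DMSO libraries, and for LIG4 over XRCC4 they overlap it.

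Levels were compared between genes per kilobase of the union of their exons. With R1881 + DMSO the order was XRCC6 at 168 ± 4.63, XRCC5 at 113 ± 7.58 and PRKDC at 15.2 ± 0.995 CPM per kb (SD, n = 10), followed at a distance by POLL at 3.98 ± 0.305, LIG4 at 3.34 ± 0.338, POLM at 2.63 ± 0.350 and XRCC4 at 2.25 ± 0.223 CPM per kb (SD, n = 10). DCLRE1C was lowest at 0.439 ± 0.0419 CPM per kb (SD, n = 10). The level of XRCC6 was 383 times that of DCLRE1C per kilobase of exon union and 228 times per kilobase of canonical transcript. The order of the means was the same with R1881 + enzalutamide and with the length of the canonical transcript. LIG4 exceeded POLM in 11 of 15 libraries and POLM exceeded XRCC4 in 13 of 15, so these neighbours were not separated by the spread between libraries. All other neighbours kept their order in 15 of 15 libraries.

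Genes that start beside an end joining gene on the opposite strand were examined as pairs, taking 5' ends within 1000 bases in the annotation. There were 4 such pairs. PRKDC and MCM4, a subunit of the replicative helicase, start 7 bases apart and diverge. LIG4 and ABHD13 start 24 bases apart, XRCC6 and DESI1 120 bases apart, and XRCC4 and TMEM167A have 5' ends 365 bases apart and overlap. All 4 neighbours passed the same test as lower, beside 32.7% of all genes tested. MCM4 was between 136.9 and 168 CPM with R1881 + DMSO and between 73.8 and 77.1 CPM with R1881 + enzalutamide. MCM4 had a log2 fold change of -1.03 (adjusted p = 2.24e-14 from limma), beside -0.18 for PRKDC. The ratio of neighbour to member within a library was tested for all 4 pairs, a test chosen after the values were seen. For MCM4 over PRKDC the log2 difference was -0.85 (two-sided exact permutation test, p = 0.000333, adjusted over 4 pairs 0.00133).

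The other pairs differed less. DESI1 had a log2 fold change of -0.42 beside -0.29 for XRCC6, TMEM167A -0.26 beside -0.07 for XRCC4, and ABHD13 -0.17 beside -0.34 for LIG4. The log2 differences of the ratios were -0.13 for DESI1 over XRCC6, -0.19 for TMEM167A over XRCC4 and 0.17 for ABHD13 over LIG4 (two-sided exact permutation tests, adjusted p = 0.0313 for each). Against one R1881 + DMSO series alone these ratios did not pass, except DESI1 over XRCC6 against libraries 71 to 75, at adjusted p = 0.0317 (exact permutation test).

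**Figure D4:**
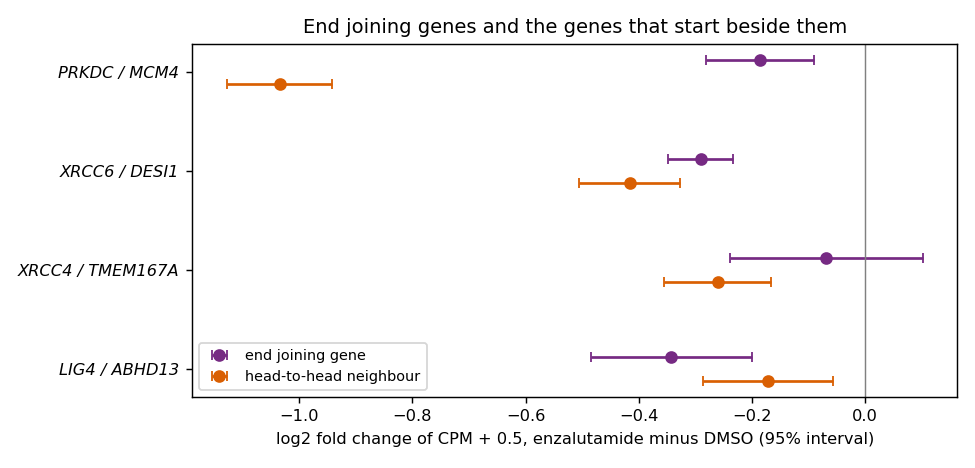
Log2 fold change of CPM + 0.5 (x axis, enzalutamide minus DMSO, bars are 95% intervals of limma) for 4 end joining genes and for the genes that start beside them on the opposite strand. MCM4 lies at -1.03 and its neighbour PRKDC at -0.18, while in each of the other pairs the intervals overlap.

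Further genes of break repair were counted in lists from the same test, beside 32.7% lower and 29.8% higher among all genes tested. Of 9 accessory end joining genes with a row, 8 passed the filter on low values, of which 2 were called lower and 3 higher (median log2 fold change 0.04). PAXX, a relative of XRCC4 that binds Ku and is listed under its older symbol, was lowest, with a log2 fold change of -0.45 (adjusted p = 0.0170 from limma). SETMAR, a methyltransferase fused to a transposase, was highest, with 0.39 (adjusted p = 4.25e-07 from limma). Of 10 alternative end joining genes, 5 were lower and none higher (median -0.18). FEN1, a flap nuclease that also serves replication, was lowest with -1.35, and POLQ, the polymerase that defines this route, was at -0.79. The MRE11, RAD50 and NBN genes of the end-resecting complex were at -0.14, -0.04 and -0.04 and were not called.

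Of 13 homologous recombination genes, 8 were lower and 3 higher (median -0.50), from RAD54L at -1.32 to BARD1 at 1.71. The median of the 8 core end joining genes, -0.13, lay between that of this list and that of all genes tested. In the list of 53BP1 and shieldin, which protect ends from resection, 4 of 6 genes were lower and none higher (median -0.31). SHLD2 was lowest at -0.67, and SHLD1 highest at 0.10 (adjusted p = 0.339 from limma), both under older symbols. TP53BP1, the gene of 53BP1 itself, was at 0.01 (adjusted p = 0.805 from limma). These counts are read against 32.7% lower and 29.8% higher among all genes tested.

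Proteins related to the core factors were examined in the same way, with 9 of 12 genes lower and 1 higher (median -0.42). The shares over all genes tested were 32.7% lower and 29.8% higher. Among the kinases related to DNA-PKcs, MTOR, a growth regulator, was at -1.01 and ATR, a replication checkpoint kinase, at -0.39, while ATM, the kinase that answers breaks, was higher at 0.47 and SMG1 was at 0.01. The other DNA ligase genes, LIG1 and LIG3, were at -0.82 and -0.23, beside -0.34 for LIG4. DCLRE1B, a relative of Artemis at telomeres, was lower at -0.77, and DCLRE1A was at 0.11. Polymerase beta, of the same family as POLL and POLM, was lower at -0.44.

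Genes of dividing cells moved with the treatment. Of 43 S phase genes 41 were lower (median -0.81), and of 53 G2/M phase genes 52 were lower and 1 was higher (median -0.87) by the same test. The shares over all genes tested were 32.7% lower and 29.8% higher. The part of the cell cycle genes in the lower levels of XRCC5, XRCC6, PRKDC and LIG4 was not tested.

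**Figure D5:**
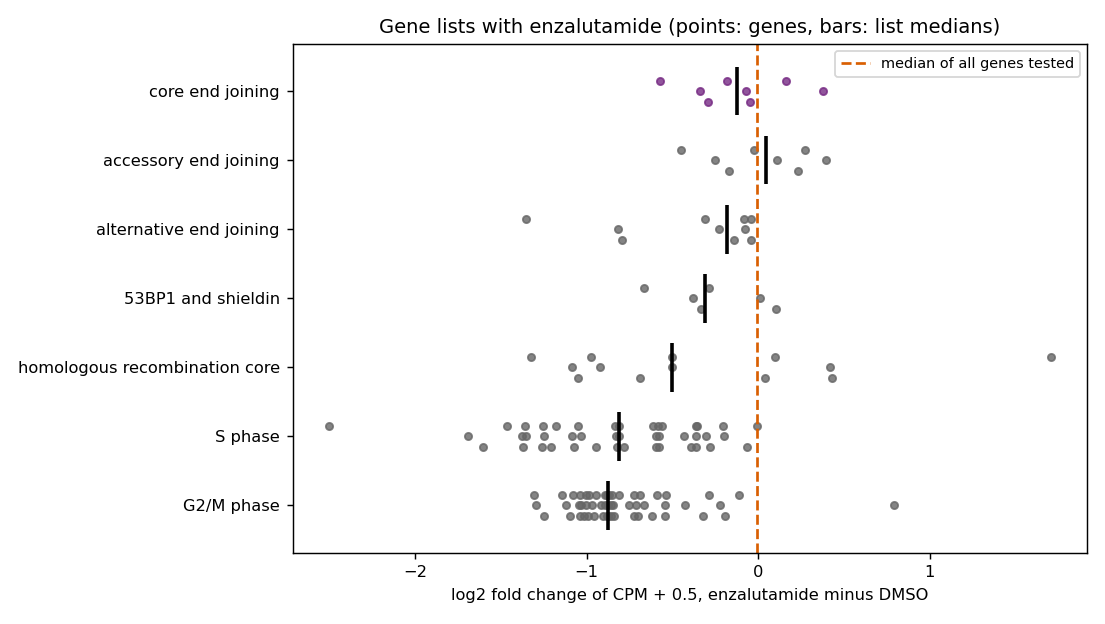
Log2 fold change of CPM + 0.5 (x axis, enzalutamide minus DMSO) of each gene in 7 lists (y axis), with black bars for list medians and a dashed line for the median of all genes tested. The core end joining genes spread from -0.57 to 0.38 around a median of -0.13, while the cell cycle lists have medians of -0.81 (S) and -0.87 (G2/M).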

How the data were processed

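Single-end reads of stranded polyadenylated RNA libraries were mapped by the authors with STAR to GRCh38 and counted per gene with featureCounts (bcl2fastq 2.17, per the labels). Other versions, the annotation, strand use, gene filter and scaling are not stated there. The deposited signal, which the study calls CPM, summed to between 985580 and 1078567 per library, and 100% of its values were whole multiples of 1 read within 0.01 reads, which gave back the read counts. Libraries of one treatment differed beyond counting noise in all 55 pairs. The study calls them biological replicates, but the labels name no separate cultures, so p-values measure spread between libraries, which may be technical.

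Differences were tested with limma 3.58.1 in R 4.3.3 on log2(CPM + 0.5) with a trended prior, for genes with a mean CPM of 0.5 or more. Treatment was the sole factor, and p-values were adjusted over all genes by Benjamini-Hochberg (threshold 0.05). The recovered reads were also tested with edgeR 4.0.16, which called 4948 genes lower and 5796 higher, and DESeq2 1.42.0. Other alternatives changed the pseudocount, filter, scaling, GC trend and the libraries used. Ratios were compared with exact permutation tests. The limma step was checked on simulated reads with known changes. These carried no trend on GC content and a single spread for all genes, so the check does not cover such features of the libraries. Positions, exon lengths and GC content are from GENCODE v44 on GRCh38 (84.9% of rows matched by symbol). Cell cycle lists were those of Seurat 5.3.0. The members, lists and tests were chosen with earlier results of these data known. All 8 members with values are named, and from each other list the lowest, the highest and genes shared between lists. POLQ, MRE11, RAD50, TP53BP1, ATR, SMG1, DCLRE1A, DCLRE1B and POLB were named beyond this rule, after their values were seen. The group sizes bound the precision, as does counting error where reads are few.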

Additional observations from a re-analysis of the deposited data

Results flagged for a closer look

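Of 26 groups of libraries examined for a value far from the others, 3 held one, where chance gives about 1.3. XRCC4 was at 4.65 CPM in R1881 + enzalutamide replicate 1, and the other R1881 + enzalutamide libraries had between 5.84 and 6.12 CPM. The ratio of LIG4 to XRCC4 was 4.23 in the same library, and between 2.89 and 3.21 in the others, and both values rest on the same 100 XRCC4 reads. Without this library the log2 fold change of XRCC4 was -0.0026 and the log2 difference of the ratio was -0.37. R1881 + enzalutamide replicate 5 held 25416052 reads, beside 21188661 to 22329140 in the other R1881 + enzalutamide libraries. Without it the same 5 end joining genes were called.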

How the results depend on the processing

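Of the end joining genes, XRCC5, XRCC6 and LIG4 were lower and POLL was higher at an adjusted p under 0.05 under every setting of the test tried, and PRKDC was lower in all but one, library totals set to 1000000 (-0.09). That scaling moved the median log2 fold change of all genes from -0.01 to 0.07 and the share of lower genes among those called from 52.3% to 39.3%; 3 members were then lower and 2 higher. It placed XRCC4 at 0.018 and POLM at 0.040, and POLM was also above 0 against libraries 51 to 55 alone (0.014) and without R1881 + DMSO replicates 5 and 6 (0.018). The number of members higher was 2, with DCLRE1C added to POLL, with TMM factors, library totals set to 1000000, edgeR, the GC trend removed, and without R1881 + enzalutamide replicates 2 and 5. When single libraries were left out, 4 members were lower and 1 to 2 higher. At 1.5-fold, 0 were lower and 0 higher in the main test. XRCC5 was past 1.5-fold against libraries 51 to 55 alone (-0.65) and without R1881 + DMSO replicates 5 and 6 (-0.61). It was also past it without R1881 + DMSO replicate 5 (-0.588), without replicate 6 (-0.596) and without R1881 + enzalutamide replicate 1 (-0.592). For LIG4 over XRCC4 the log2 difference was -0.19 against libraries 71 to 75 alone and between -0.37 and -0.23 when single libraries were left out. Leaving out each library kept the other ratios past the threshold. The replicate numbers are shared by the treatments, but the deviations of same-numbered libraries correlated between -0.11 and 0.13, so they were not treated as pairs. With the replicate block the same 5 members were called, and the paired log2 differences of the ratios were 0.27 for XRCC6 over XRCC5, -0.25 for LIG4 over XRCC4, 0.37 for PRKDC over XRCC5 and -0.45 for POLM over POLL, where 5 pairs cannot give a p below 0.0625. Between the R1881 + DMSO series 1 member, XRCC5, was higher in libraries 51 to 55 by edgeR and with library totals set to 1000000, and 0 to 1 members were on leaving out single libraries (XRCC5 without R1881 + DMSO replicate 3). With library totals set to 1000000, accessory end joining held 1 lower gene, 53BP1 and shieldin 1 higher and the related proteins 3 higher (2 by edgeR). Per kilobase of the canonical transcript, levels with R1881 + DMSO were 257 for XRCC6, 183 for XRCC5, 32.8 for PRKDC, 7.76 for POLL, 5.97 for LIG4, 4.36 for POLM, 3.75 for XRCC4 and 1.13 CPM per kb for DCLRE1C. DESI1 over XRCC6 against libraries 51 to 55, and TMEM167A over XRCC4 and ABHD13 over LIG4 against either series, missed the threshold. Depth limits XRCC4 and DCLRE1C most, with medians of 126 and 145 reads per library. The tests of the 4 neighbour ratios, the alternatives that leave out pairs of libraries, and library totals in the comparison of the series, were chosen after seeing the data.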
